A study of Homo sapiens with 2 samples.

Results

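A set of 10 cell surface adhesion receptor genes was followed across both arrays of the study: CD44, CD99 and the integrin chain genes ITGA4, ITGA5, ITGA6, ITGAV, ITGB1, ITGB2, ITGAL and ITGAM. They were taken by gene symbol as a named list, and every probe set that the array's annotation gives to 1 of them alone was read separately. This gave 37 probe sets for 10 of the 19775 genes named on the array. The list was chosen by gene family with the differences between these arrays known, that of CD44 among them, so its members were in part selected on the measured PML4 to control vector contrast. Every difference given for them is a description. The cells were K562, a human line from a chronic myeloid leukaemia that carries the BCR-ABL fusion. The first group was K562 transduced with a retrovirus for PML4, one of the splice isoforms of PML, the promyelocytic leukaemia gene. The second was K562 transduced with the empty vector pMSCV. Both were grown in 10% fetal bovine serum and selected with G418 for 3 weeks, and the labels do not say whether either was a pool of cells or 1 clone. Each group holds 1 array, so no value has a replicate, no test was made, and every difference is one between these 2 arrays.

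CD44 is the main surface receptor for hyaluronan, a matrix sugar polymer, and its tail binds the cytoskeleton through ezrin, radixin and moesin. Integrins are paired receptors of 1 alpha and 1 beta chain that bind matrix proteins or counter-receptors on other cells, and the pair decides the ligand. CD99 is a small glycosylated surface protein that takes part in the passage of leukocytes between endothelial cells. K562 cells are known for attaching to fibronectin through the pair of alpha 5 and beta 1 chains, while the beta 2 chain and its partners are typical of mature leukocytes.

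Signals are given as linear MAS5 intensities. The floor, under which signals were taken as not measurable, was 72.4, the median over the human probe sets of the 2 arrays. Of human probe sets, 48.1% lay above it on the PML4 array and 51.9% on the control vector array. A probe set above the floor on at least 1 array is called measured, and any lower signal was set to the floor before log2 was taken. The 10 probe sets of PML disagreed: 211013_x_at was at 1386.8 on the PML4 array and 216.3 on the control vector array, while 206503_x_at was at 156.5 with PML4 and 927.2 with the control vector. The 3' to 5' signal ratios of the RNA integrity controls were 1.53 on the PML4 array and 1.55 on the control vector array for GAPDH, and 2.80 on the PML4 array and 2.94 on the control vector array for ACTB. Markers fixed for K562 were present, since all 11 erythroid marker genes with a probe set of their own were measured. Of these 8 were higher and 3 lower with PML4, and their summed signal was 78755.3 on the PML4 array and 52607.4 on the control vector array. The sum is mostly TFRC, at 31653.7 with PML4 and 17625.2 with the control vector, and HBE1, at 24540.1 with PML4 and 18103.9 with the control vector. The list moved both ways, since the embryonic globin gene HBZ was 3.90-fold higher with PML4, while ALAS2 was 2.57-fold, EPOR 2.08-fold and TAL1 1.44-fold lower. The probe sets of EPOR and TAL1 disagreed. Of the 4 measured for EPOR 3 were lower, and 209962_at was higher, at 287.7 with PML4 and 164.2 with the control vector. TAL1 had 1 measured probe set higher and 1 lower. Of lymphocyte and monocyte markers 5 of 9 were measured, all 5 lower with PML4, where 44.7% of all measured genes were higher. These 5 summed to 3785.9 on the PML4 array and 4559.0 on the control vector array. Most of that was LYZ, lysozyme, at 3134.6 with PML4 and 3206.4 with the control vector, with 1 of its 2 measured probe sets higher. CD3E and CSF1R were above the floor on the control vector array only. ITGAX was near the floor, at 82.8 with PML4 and 103.2 with the control vector, and PTPRC was 2.27-fold lower with PML4. MS4A1, CD14, NKG7 and MPO were under the floor on both arrays. Of fibroblast and stromal markers 2 of 10 were measured, COL1A1 and DCN, which summed to 335.7 on the PML4 array and 512.9 on the control vector array. The part of these markers in the differences given here was not tested. A difference in bulk RNA cannot tell fewer cells that express a gene from less RNA per cell.

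Promoter sequences are shown for 4 members to set the gene past 2-fold, CD44, beside a gene with a high signal on both arrays, ITGB1, a gene under the floor, ITGA4, and ITGAM, whose partner chain was under the floor. Each is the stretch of 250 bases before the annotated start, 5′ to 3′ on the gene's strand, from RefSeq on GRCh38.p14. Capitals mark matches on either strand to GGGCGG, the GC box, to TGANTCA, the AP-1 motif, to GATAA, the GATA motif, or to GAGGAA, the core of PU.1 sites, and no 2 matches overlap in the stretches shown. These were at chr11:35138921-35139170 on the plus strand for CD44, chr10:32958231-32958480 on the minus strand for the upstream one of 2 annotated ITGB1 starts, chr2:181457136-181457385 on the plus strand for ITGA4 and chr16:31259725-31259974 on the plus strand for ITGAM.
CD44: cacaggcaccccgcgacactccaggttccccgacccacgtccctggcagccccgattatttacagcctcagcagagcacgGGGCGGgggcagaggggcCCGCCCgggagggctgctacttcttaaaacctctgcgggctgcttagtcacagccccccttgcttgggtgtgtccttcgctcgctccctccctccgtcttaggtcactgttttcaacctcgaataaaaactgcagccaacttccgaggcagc
ITGB1: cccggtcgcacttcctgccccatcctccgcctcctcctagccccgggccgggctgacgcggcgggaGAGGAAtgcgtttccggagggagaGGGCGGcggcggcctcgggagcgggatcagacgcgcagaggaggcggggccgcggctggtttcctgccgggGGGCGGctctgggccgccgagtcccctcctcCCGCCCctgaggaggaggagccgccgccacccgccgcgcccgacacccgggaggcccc
ITGA4: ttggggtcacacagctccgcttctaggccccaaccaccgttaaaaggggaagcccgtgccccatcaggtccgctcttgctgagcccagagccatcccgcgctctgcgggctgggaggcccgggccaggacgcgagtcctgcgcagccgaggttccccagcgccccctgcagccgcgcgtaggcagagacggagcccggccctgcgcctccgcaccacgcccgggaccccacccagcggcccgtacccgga
ITGAM: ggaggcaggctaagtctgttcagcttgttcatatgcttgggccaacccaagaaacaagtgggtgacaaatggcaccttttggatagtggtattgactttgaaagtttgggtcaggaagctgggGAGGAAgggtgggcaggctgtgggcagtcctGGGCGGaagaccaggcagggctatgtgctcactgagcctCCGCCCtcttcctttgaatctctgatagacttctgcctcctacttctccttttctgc

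The CD44 stretch held 2 GC boxes and none of the other motifs, and its ratio of observed to expected CpG was 0.64. The ITGB1 stretch shown held 3 GC boxes and 1 PU.1 core, with a CpG ratio of 0.83. The stretch at the other annotated ITGB1 start, not shown, had a ratio of 0.47 and none of the 4 motifs. ITGA4, though under the floor on both arrays, had a CpG-rich stretch with a ratio of 0.77 and none of the 4 motifs. The ITGAM stretch was poor in CpG, with a ratio of 0.12, and held 2 GC boxes and 1 PU.1 core. Over 35093 promoter stretches of the same length the median ratio was 0.56, and 42.6% held a GC box, 23.6% a PU.1 core, 20.5% a GATA motif and 6.57% an AP-1 motif. Matches are a description of letters and not of bound sites. Of the 10 genes 8 had an entry in the promoter table, and ITGB2 and ITGAL had none.

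CD44 had a higher signal on the PML4 array in all 9 of its measured probe sets, but by unequal sizes. The probe set that stands for the gene, 212063_at, was at 2086.2 on the PML4 array and 988.3 on the control vector array, 2.11-fold higher. The probe set 1557905_s_at was at 534.4 on the PML4 array and 254.5 on the control vector array, and 217523_at was at 302.8 with PML4 and 144.7 with the control vector. These 3 probe sets were between 2.09-fold and 2.11-fold higher, and all 3 were above the floor on both arrays. Without a floor and with a pseudocount of 32 added, 1557905_s_at and 217523_at had log2 differences of 0.98 and 0.92, just under 2-fold. Raising the floor to the 75th percentile put 1557905_s_at at 0.20 and left 217523_at not measured.

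The other 6 measured probe sets of CD44 were between 1.02-fold and 1.54-fold higher. The largest of these differences was in 204490_s_at, at 422.0 on the PML4 array and 274.8 on the control vector array. The probe sets 209835_x_at, at 429.1 with PML4 and 309.1 with the control vector, and 212014_x_at, at 331.9 with PML4 and 230.8 with the control vector, were 1.39-fold and 1.44-fold higher on the PML4 array. These carry the suffix that marks probes able to bind other transcripts. The smallest differences were in 229221_at, at 127.0 on the PML4 array and 106.9 on the control vector array, in 204489_s_at, at 483.9 with PML4 and 440.1 with the control vector, and in 210916_s_at, at 303.9 with PML4 and 298.4 with the control vector. Another 4 probe sets were under the floor on both arrays and differed both ways. With PML4 and with the control vector, 216056_at was at 27.0 and 5.9 and 234411_x_at at 23.6 and 18.6. In the same order, 1565868_at was at 42.3 and 46.3 and 234418_x_at at 1.0 and 1.7.

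Averaged over its 9 measured probe sets the log2 difference of CD44 was 0.58, under the 2-fold size. With 212063_at left out, the next probe set by signal, 204489_s_at, gave 0.14, and the dimmest measured one, 229221_at, gave 0.25. CD44 was not past 2-fold under any of these readings, which put 1.04% of genes at least 2-fold higher with the mean, 1.37% without the brightest probe set and 1.49% with the dimmest. The direction of CD44 was therefore shared by every measured probe set, and its size turned on which probe set was read. CD44 is transcribed with many variable exons, and where each probe set lies among them was not used here. Among the 13 genes with at least 9 measured probe sets, 2 had all of them differing one way, CD44 included. The CD44 probe sets spanned 1.05 on the log2 scale, and the median span over those 13 genes was 1.16.

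**Figure D1:**
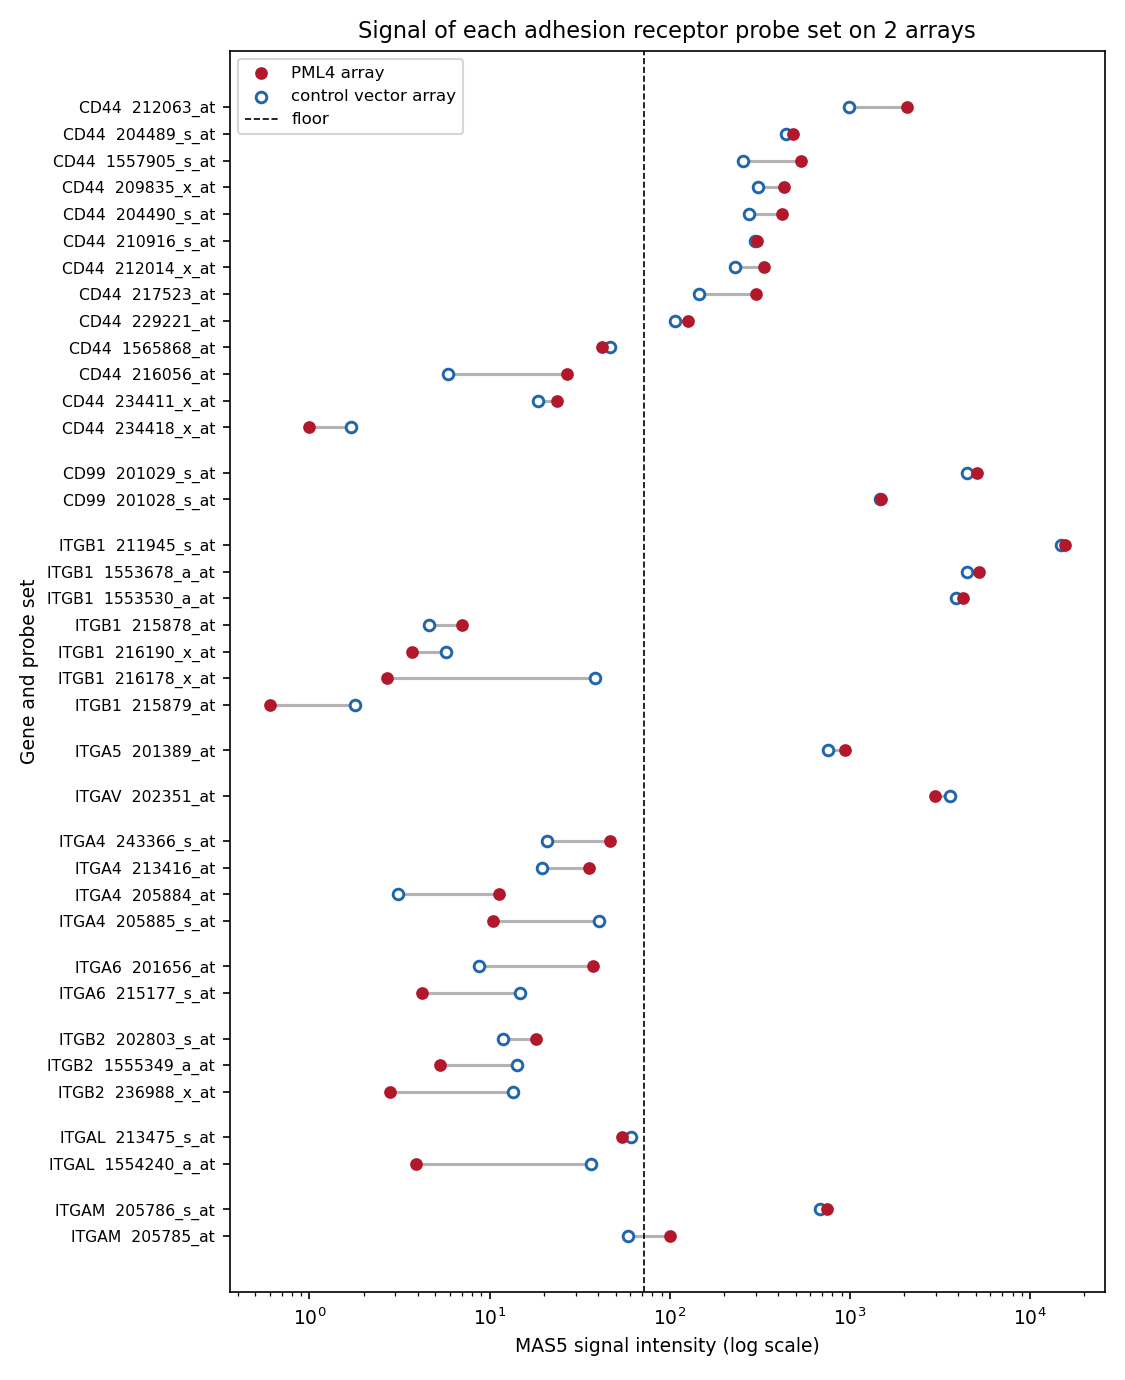
Signal of each of the 37 probe sets, by gene, on a log axis of MAS5 signal intensity. Filled points are the PML4 array, open points the control vector array and the dashed line the floor of 72.4. The 9 CD44 probe sets above the floor all lie further right on the PML4 array, and the 19 probe sets left of the floor differ in both directions.

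CD99 differed little. The probe set 201029_s_at was at 5082.1 on the PML4 array and 4446.5 on the control vector array, 1.14-fold higher. The other, 201028_s_at, was at 1496.1 on the PML4 array and 1460.9 on the control vector array, a log2 difference of 0.03. After quantile normalization the second was at -0.0042, on the other side of 0.

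The chains of the fibronectin receptor were both measured and both under 2-fold. ITGB1 encodes the beta 1 chain, shared by the largest group of integrin pairs. Its probe set 211945_s_at was at 15625.5 on the PML4 array and 14918.2 on the control vector array, a 1.05-fold difference. The probe sets 1553678_a_at, at 5196.8 on the PML4 array and 4487.3 on the control vector array, and 1553530_a_at, at 4264.8 with PML4 and 3874.2 with the control vector, were also higher. The 3 measured ITGB1 probe sets thus lay between 0.07 and 0.21 on the log2 scale. Its other 4 probe sets were under the floor on both arrays.

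ITGA5 encodes the alpha 5 chain, which pairs with beta 1 to bind fibronectin. Its only probe set was at 939.3 on the PML4 array and 753.9 on the control vector array, a 1.25-fold higher signal. ITGAV encodes the alpha V chain, which pairs with several beta chains and binds vitronectin and related ligands. It was at 2951.4 on the PML4 array and 3586.5 on the control vector array, 1.22-fold lower, and was the only measured member with a lower signal. Each of these genes rests on 1 probe set, so no second reading of their direction exists.

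ITGA4 encodes the alpha 4 chain, which binds fibronectin and VCAM1, and ITGA6 encodes the alpha 6 chain of laminin receptors. Neither was measured. The 4 probe sets of ITGA4 lay between 10.5 and 46.3 on the PML4 array and between 3.1 and 40.7 on the control vector array. The 2 of ITGA6 lay between 4.2 and 37.3 on the PML4 array and between 8.7 and 14.7 on the control vector array. With a lower floor, at the 25th percentile, both genes were past 2-fold higher, as were 3.79% of all genes then measured, against 1.23% with the main floor. Within each gene the probe sets disagreed in direction under the floor. In ITGA4, 243366_s_at was at 46.3 on the PML4 array and 20.9 on the control vector array, and 205885_s_at at 10.5 with PML4 and 40.7 with the control vector. In ITGA6, 201656_at was at 37.3 with PML4 and 8.7 with the control vector, and 215177_s_at at 4.2 with PML4 and 14.7 with the control vector.

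The leukocyte integrins of the list split. ITGB2 encodes the beta 2 chain, without which the alpha L and alpha M chains do not reach the surface, and its 3 probe sets were all under the floor. They lay between 2.8 and 18.1 on the PML4 array and between 11.8 and 14.2 on the control vector array. ITGAL encodes the alpha L chain that binds the ICAM proteins. Its 2 probe sets were also under the floor, 213475_s_at at 54.6 on the PML4 array and 60.7 on the control vector array, and 1554240_a_at at 3.9 with PML4 and 36.5 with the control vector.

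ITGAM encodes the alpha M chain, which with beta 2 forms the complement receptor of phagocytes. Unlike ITGB2, it was measured. Its probe set 205786_s_at was at 742.6 on the PML4 array and 678.5 on the control vector array, a 1.09-fold difference. The other ITGAM probe set, 205785_at, was above the floor on the PML4 array only, at 100.6 with PML4 and 58.8 with the control vector, so its log2 difference of 0.47 is a lower bound. Other myeloid genes of the marker list differed in level: MPO and CD14 were under the floor on both arrays, CSF1R was above it on the control vector array only, and ITGAX, at 82.8 with PML4 and 103.2 with the control vector, and LYZ were above it on both.

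Together, 6 of the 10 genes were measured, 5 with a higher and 1 with a lower signal on the PML4 array. Of all measured genes 44.7% were higher on that array. CD44 was the 1 member at least 2-fold higher, and 0 of 6 were at least 2-fold lower. Over all 12541 measured genes, 1.23% were at least 2-fold higher and 3.21% at least 2-fold lower. The members were chosen with this contrast known, so nothing is read from their share. At least as large a higher difference as that of CD44, read by 212063_at, was found in 113 of the 12541 genes, CD44 included. The mean over the measured probe sets of CD44 was 0.58 on the log2 scale, and no rank is given for that reading. ITGA5, the next member by size, was well inside the 2-fold line. The median log2 difference was 0.16 over the 6 measured members and -0.05 over all measured genes. Of the 18 measured probe sets 17 were higher and 1 lower, and 3 were at least 2-fold higher, all of CD44. CD44 alone gave 9 of the 18, and probe sets of 1 gene are not independent readings, so nothing is read from the split. Of all measured probe sets 1.3% were at least 2-fold higher and 3.22% at least 2-fold lower. Of the 19 probe sets under the floor 8 had a higher and 11 a lower signal on the PML4 array, with raw ratios of up to 14.2-fold, so no direction is given for them.

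**Figure D2:**
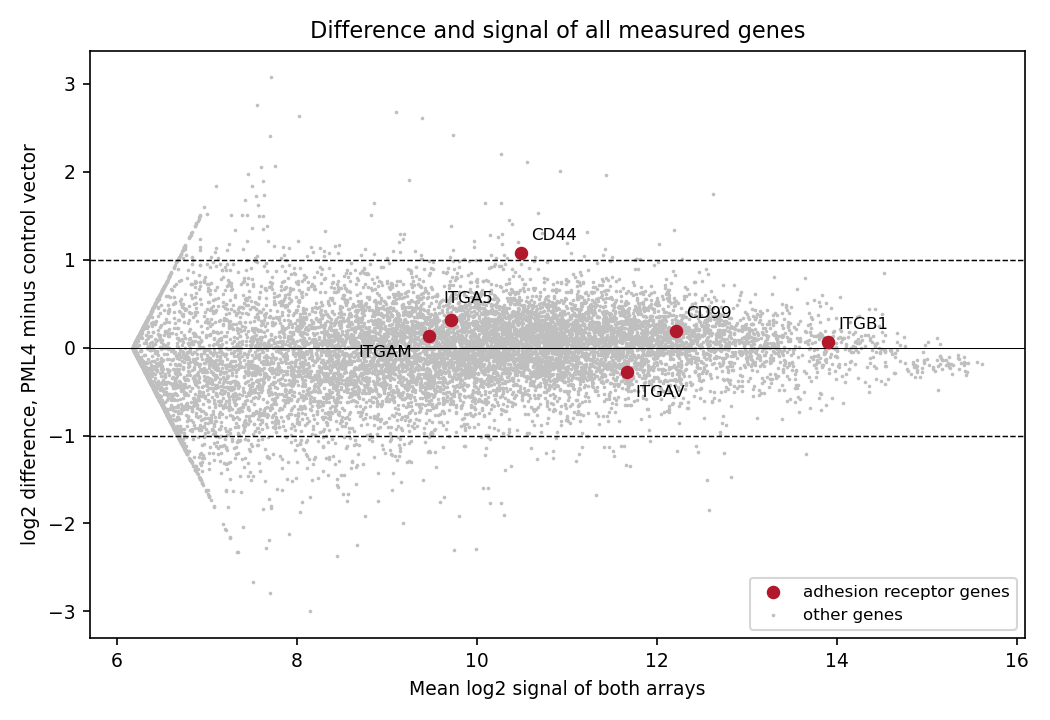
The log2 difference, PML4 minus control vector, against the mean log2 signal of both arrays for 12541 genes, with the 6 measured adhesion receptor genes in red. Dashed lines mark 2-fold. CD44 lies above the upper line and the other 5 between the lines, and the sloping edges at low signal are genes with 1 array at the floor.

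The other integrin chains held no gene past 2-fold either. Over both families 11 of 25 chains with a probe set of their own were measured, 7 alpha and 4 beta, and 0 were at least 2-fold different in either direction. Of all measured genes 1.23% were at least 2-fold higher and 3.21% at least 2-fold lower, so 0 among 11 is near those shares. ITGAE, the alpha E chain of lymphocytes that reside in epithelium, was at 3988.9 on the PML4 array and 2489.8 on the control vector array, 1.60-fold higher. ITGB5, a beta chain that pairs with alpha V, was at 613.4 on the PML4 array and 946.1 on the control vector array, 1.54-fold lower, with all 3 of its measured probe sets lower. ITGA2B, the platelet alpha chain, was at 909.4 on the PML4 array and 888.4 on the control vector array, while ITGB3, its partner, was not measured, at 71.5 with PML4 and 51.7 with the control vector. ITGB4, a laminin-binding beta chain, was at 72.7 with PML4 and 93.6 with the control vector. The medians were 0.08 over the 4 other alpha chains and -0.36 over the 3 other beta chains measured.

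A further 8 lists of related genes, written with earlier results of these arrays known, set the receptors in their pathway. They hold 186 genes other than the members, of which 121 were measured, with a median log2 difference of -0.11. Of these 2 were at least 2-fold higher and 5 at least 2-fold lower, which is 1.65% and 4.13%, beside 1.23% and 3.21% of all genes. Counts in these lists were therefore near those of all genes.

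Among integrin ligands 24 of 38 genes were measured, 0 were at least 2-fold higher and 2 at least 2-fold lower, with a median of -0.10. LAMB1, the laminin beta 1 chain of basement membranes, was at 459.3 on the PML4 array and 1731.1 on the control vector array, 3.77-fold lower. Its second probe set, 211651_s_at, was at 354.9 with PML4 and 1434.7 with the control vector, so both readings were lower by a like size. ADAM15, a metalloprotease with an integrin-binding domain, was 2.37-fold lower at 191.2 with PML4 and 453.4 with the control vector, but its other measured probe set, 217007_s_at, was higher on the PML4 array, at 105.0 with PML4 and 55.3 with the control vector. FN1 encodes fibronectin, the ligand of alpha 5 with beta 1. It was at 3177.6 on the PML4 array and 3076.0 on the control vector array, 1.03-fold higher, with all 4 measured probe sets higher. ADAM9, another of these metalloproteases, was at 3578.0 with PML4 and 3562.5 with the control vector. Among ligands of the leukocyte integrins, ICAM3 was at 981.3 on the PML4 array and 524.8 on the control vector array, and ICAM2 at 1027.9 with PML4 and 1633.7 with the control vector. VCAM1, a ligand of the alpha 4 chain, was not measured.

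Of the genes that activate integrins or link them to actin, 35 of 43 were measured, 1 at least 2-fold higher and 2 at least 2-fold lower, with a median of 0.05. ARHGEF6, an exchange factor for Rac and Cdc42 at adhesion sites, was 2.04-fold higher, at 2281.8 on the PML4 array and 1120.8 on the control vector array. SRC, the tyrosine kinase that signals from integrins, was 2.32-fold lower in 1558211_s_at, at 79.6 with PML4 and 184.5 with the control vector, while 213324_at was higher on the PML4 array, at 126.8 with PML4 and 40.4 with the control vector, the lower of these under the floor. ITGB1BP2, a muscle protein that binds the beta 1 tail, was 2.22-fold lower at 118.8 with PML4 and 263.6 with the control vector. The core activators were under 2-fold: TLN1, talin, was at 774.9 on the PML4 array and 751.1 on the control vector array, and FERMT3, the kindlin of blood cells, at 3615.0 with PML4 and 2783.9 with the control vector. RAP1B, the small GTPase that switches integrins on, was at 18256.8 with PML4 and 14443.0 with the control vector, and CRKL, an adaptor, at 15096.2 with PML4 and 11907.5 with the control vector.

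Tetraspanins and other surface partners of integrins held no gene past 2-fold among 17 measured, with a median of -0.10. CD9, a tetraspanin, was at 356.1 on the PML4 array and 665.9 on the control vector array, 1.87-fold lower. CD47, which associates with integrins and blocks phagocytosis, was at 17991.9 on the PML4 array and 11862.3 on the control vector array, 1.52-fold higher, with 6 of 7 measured probe sets higher. CD63 was at 12632.3 with PML4 and 11975.6 with the control vector.

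The hyaluronan pathway around CD44 held 0 genes at least 2-fold higher and 1 at least 2-fold lower. Of 25 genes 18 were measured, 5 higher and 13 lower, with a median of -0.13. Over all measured genes 44.7% were higher and the median was -0.05. The gene at least 2-fold lower was STAB1, a scavenger receptor for hyaluronan, at 60.7 on the PML4 array, under the floor, and 145.1 on the control vector array. Its 3 measured probe sets disagreed. HYAL3, of the hyaluronidase family, was at 334.1 with PML4 and 174.0 with the control vector, 1.92-fold higher on the PML4 array. Of genes for proteins that bind the CD44 tail, NF2, merlin, was at 798.8 with PML4 and 650.1 with the control vector, 1.23-fold higher, and both its measured probe sets were higher. The others differed less: MSN, moesin, was at 16611.5 on the PML4 array and 16055.6 on the control vector array, EZR, ezrin, at 3458.0 with PML4 and 3180.7 with the control vector, and RDX, radixin, at 5976.0 with PML4 and 6348.8 with the control vector. Of the 3 measured probe sets of RDX, 2 were higher with PML4. ADAM10, a protease that sheds CD44, was at 6521.1 with PML4 and 7074.1 with the control vector, though 2 of its 3 measured probe sets were higher. KHDRBS1, a splicing regulator known to act on CD44 variable exons, was at 9318.8 with PML4 and 10418.0 with the control vector. Of the relatives and ligands of CD99, CD99L2 was at 278.8 on the PML4 array and 235.5 on the control vector array and PILRA, a receptor that binds CD99, at 95.3 with PML4 and 133.7 with the control vector.

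Among 18 other adhesion receptors measured, 1 was at least 2-fold higher and 0 were at least 2-fold lower, with a median of -0.19. SELPLG, the ligand of P-selectin on leukocytes, was at 1654.1 on the PML4 array and 271.8 on the control vector array, 6.09-fold higher. Its second probe set, 209880_s_at, was at 161.4 on the PML4 array and 7.5, under the floor, on the control vector array, so it was at least 2.23-fold higher. SELP, the selectin it binds, was at 93.4 with PML4 and 112.9 with the control vector. CD24, a glycosylated surface protein that also binds P-selectin, was at 10534.5 on the PML4 array and 16969.9 on the control vector array, with all 6 measured probe sets lower. CD164, a sialomucin of blood progenitors, was at 13611.0 with PML4 and 15621.5 with the control vector. The common leukocyte gene PTPRC, from the marker list, was 2.27-fold lower at 470.9 with PML4 and 1067.2 with the control vector, and its part in these differences was not tested.

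**Figure D3:**
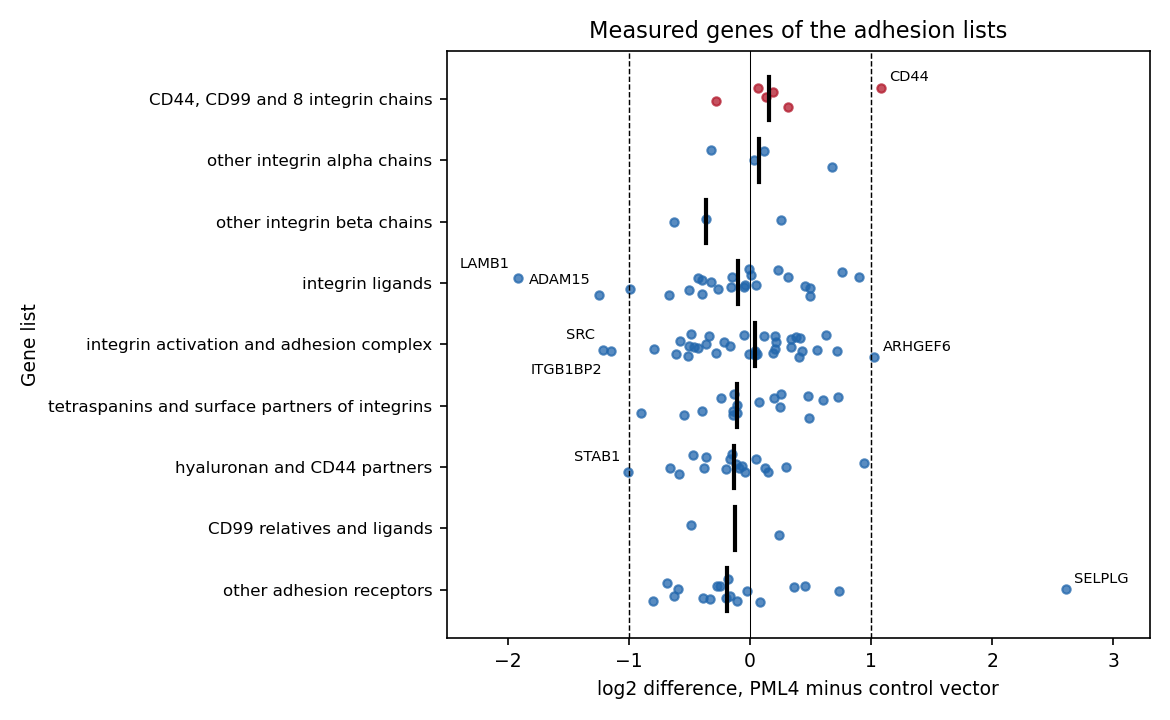
The log2 difference, PML4 minus control vector, of each measured gene in the 10 adhesion receptors, in red, and in the 8 related lists, in blue. Thick bars are medians, dashed lines mark 2-fold and genes past it are named. SELPLG at 2.61 and LAMB1 at -1.91 lie furthest out, and all medians lie between -0.36 and 0.16.

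With 2 arrays, likeness to CD44 could be measured only as the distance between pairs of log2 signals. The 3 genes nearest to it outside the list were ATP6V0A2, at 2011.0 on the PML4 array and 1037.4 on the control vector array, TMEM14A, at 2132.7 with PML4 and 924.6 with the control vector, and NAF1, at 1856.9 with PML4 and 1019.6 with the control vector. Their log2 differences were 0.95, 1.21 and 0.86, and their distances from CD44 ran from 0.09 to 0.17. CD44 was read here by 212063_at alone, and no nearest genes were sought for its other probe sets.

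**Figure D4:**
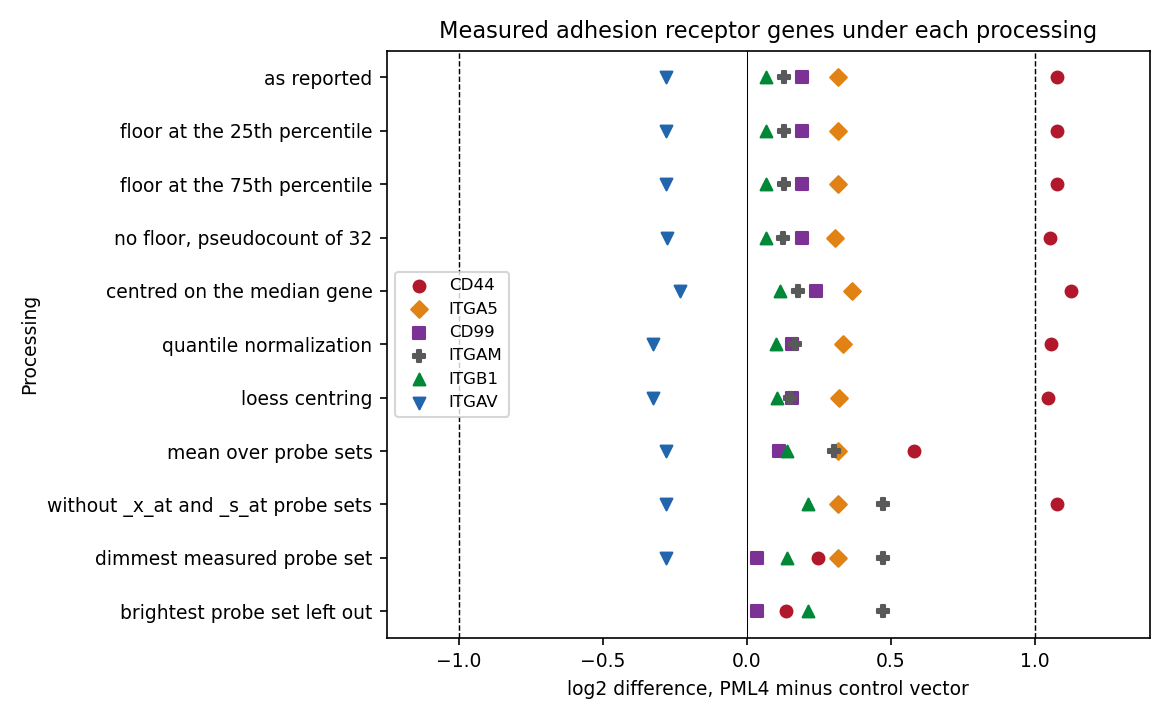
The log2 difference, PML4 minus control vector, of the 6 members measured as reported, under each processing down the page, with dashed lines at 2-fold. CD44 stays right of the 2-fold line in 8 of 11 rows, and those 8 rows all read the same probe set, 212063_at. CD44 drops to 0.58, 0.25 and 0.14 where other probe sets are read or averaged in. ITGAV is left of 0 wherever it is shown.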

How the data were processed

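Gene expression was read on 2 Affymetrix arrays, 1 a group. Each took cRNA made from 6 µg of RNA, per the labels' protocols. The authors deposited linear MAS5 intensities. MAS5 (version not given), which summarises the probes of a probe set and scales each array, is the tool per the submitters' processing notes. The mean without the lowest and highest 2% was 500.1 on the PML4 array and 500.0 on the control vector array. For its settings, nothing was given in the sources used here. Detection calls were not used here. Precision is limited by the number of arrays.

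The rest was computed here with Python 3.11.15, pandas 2.3.3 and statsmodels 0.14.6. Of 54675 probe sets, 54613 of them human, 41097 carry 1 gene in GEO's annotation, and 41043 matched a current gene ID. The array's annotation names no build, so probe sets are given no coordinates. Those of the promoter stretches are from RefSeq on GRCh38.p14. Each gene was read by the measured probe set of highest mean log2 signal, for 12541 genes. A call is a difference of at least 2-fold, with no test. Alternatives changed the floor (25th or 75th percentile, or none with a pseudocount of 32), the scaling (median centring, quantile, loess with a span of 0.4), the probe set read and the fold. The code was tested on simulated data. The members and lists were chosen with earlier results of these data known. Named genes were all members and, per other list, those past 2-fold and the 2 of highest mean signal. Other genes named were chosen after their values were seen.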

Additional observations from a re-analysis of the deposited data

How the results depend on the processing

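The log2 difference of CD44 was 1.08 as reported and between 1.05 and 1.13 with other floors, no floor, centring, quantile normalization, loess centring or with _x_at and _s_at probe sets left out. All of these read the same probe set, 212063_at, so their closeness says nothing about the other CD44 probe sets. The log2 difference of CD44 was 0.58 as the mean over probe sets, 0.25 with the dimmest measured probe set and 0.14 with its brightest probe set left out, a setting chosen after seeing the data. The count of members at least 2-fold higher was therefore 0 under each of these 3, where 1.04% of genes were at least 2-fold higher with the mean over probe sets. At 3-fold the count was also 0. No share of all genes is given at 3-fold, so nothing is read from that count. A floor at the 25th percentile gave 3, where ITGA4 and ITGA6 joined at 1.15 and 1.12 on the log2 scale from signals under the main floor, and where 3.79% of all genes were at least 2-fold higher. The count of members at least 2-fold lower was 0 under all alternatives. The median over measured members ran from 0.15 to 0.32. The other 5 measured members kept their sign in all 47 values and moved by less than 0.30, the median gap between probe sets of 1 gene, in 44. The 3 exceptions were ITGAM, at 0.47 wherever 205785_at was read. Quantile normalization gave 196 genes higher and 281 lower over the array, 41.1% higher, beside 154 and 402, 27.7% higher, as deposited, and a floor at the 75th percentile left 50 and 63, 44.2% higher. No paired analysis was possible because each group holds 1 array. Signals near the floor are the least precise.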
